A study of Mus musculus with 15 samples.

Results

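Thbs1, Thbs2, Tnc, Postn, Sparc, Fbln1, Cthrc1, Lox, Bgn and Mfap5 encode secreted proteins that organise collagen or act between the extracellular matrix and the cell surface. These 10 genes were set out as a group because earlier results of the same data had several of them lower in KO than in WT cells of both sexes. That choice used the KO against WT values with no numeric threshold, so those values are given below as a description without a test. All 10 were among the 24421 gene symbols listed, and all 10 were among the 13912 genes with enough counts to be tested.

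RNA-seq counts came from 15 libraries of primary kidney proximal tubule cells, the epithelium that reabsorbs most of the filtered salt, glucose and amino acids, grown in culture and passaged before RNA was isolated. The groups were male KO (n = 3 libraries), male WT (n = 4), female KO (n = 4) and female WT (n = 4). All mice were C57BL/6, KO mice were Diet1-/-, WT mice were Diet1+/+, and their ages are not given. Per the labels, each group was a pool of cells from 3 to 4 mice that was divided into technical replicates. Each group is thus 1 pool, and the p-values below measure the spread between libraries of a pool, not between mice or cultures. Diet1, now named Malrd1, encodes a protein of small intestine and kidney that acts on bile acids, and that gene was not analysed here, so the genotype labels were not checked against it. Library totals ran from 17648416 to 30896637 counts.

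Matricellular proteins are secreted into the matrix without serving as its main structural fibres. Thrombospondins, tenascin C and periostin bind integrins, collagens or growth factors, and thrombospondin 1 is known as an activator of latent TGF beta. Lysyl oxidase cross-links collagen and elastin, biglycan and SPARC bind collagen as its fibrils form, and MFAP5 and fibulin 1 associate with microfibrils and elastic fibres. In injured kidney these genes are best known from interstitial fibroblasts and pericytes and from tubule cells that have lost some of their epithelial traits.

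The labelled cell type was checked against marker lists. Of 12 proximal tubule markers, 6 had enough counts to be tested, among them Lrp2 and Ggt1. Transporters of the list that define the segment in the kidney were nearly absent. Slc34a1 and Slc5a12 had at most 3 counts in any library, and Slc22a6 and Slc22a8 at most 1. Slc5a2 had at most 13 counts and 0.50 CPM in any library. The summed level of the 12 markers was 62.9 to 64.6 CPM (counts scaled by TMM to a common library size of 1e+06) in male KO and 78.4 to 82.2 in male WT libraries, and 57.7 to 60.0 in female KO and 90.7 to 105 in female WT libraries. Ggt1, the largest part, averaged 37.1 CPM in male KO and 47.7 in male WT cells, and 35.5 in female KO and 68.7 in female WT cells. Of the 6 tested, 2, Lrp2 and Ggt1, were lower in KO cells of both sexes. Of all genes tested, 10.1% were lower in male and 18.6% in female KO cells. The other 4 markers passed in neither sex. The cells are therefore called here by their label, as cultured cells in which these transporters were at or near 0.

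The 10 genes together took 1.46 ± 0.0226% of all counts in male KO libraries (SD, n = 3) and 1.88 ± 0.0331% in male WT libraries (SD, n = 4). The share was 1.58 ± 0.0283% in female KO and 1.98 ± 0.0181% in female WT libraries (SD, n = 4 each). Thbs1, Tnc and Sparc made up most of it. Per kilobase of exon, the mean level over the 4 groups was 1504 CPM for Thbs1, which ranked 6 among 13377 tested genes with a known length. Tnc, at 735 CPM per kilobase, ranked 18, and Sparc, at 453, ranked 40. Lox and Bgn followed at 64.1 and 42.5 CPM per kilobase, and Cthrc1 at 23.2. Thbs2 at 4.84, Postn at 2.82, Mfap5 at 0.905 and Fbln1 at 0.508 CPM per kilobase lay below the middle of the range. Thbs2 and Postn, whose KO to WT ratios were among the most marked, ranked 7204 and 8722 among the 13377 genes. Fbln1 rests on 22 to 70 counts per library.

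**Figure D1:**
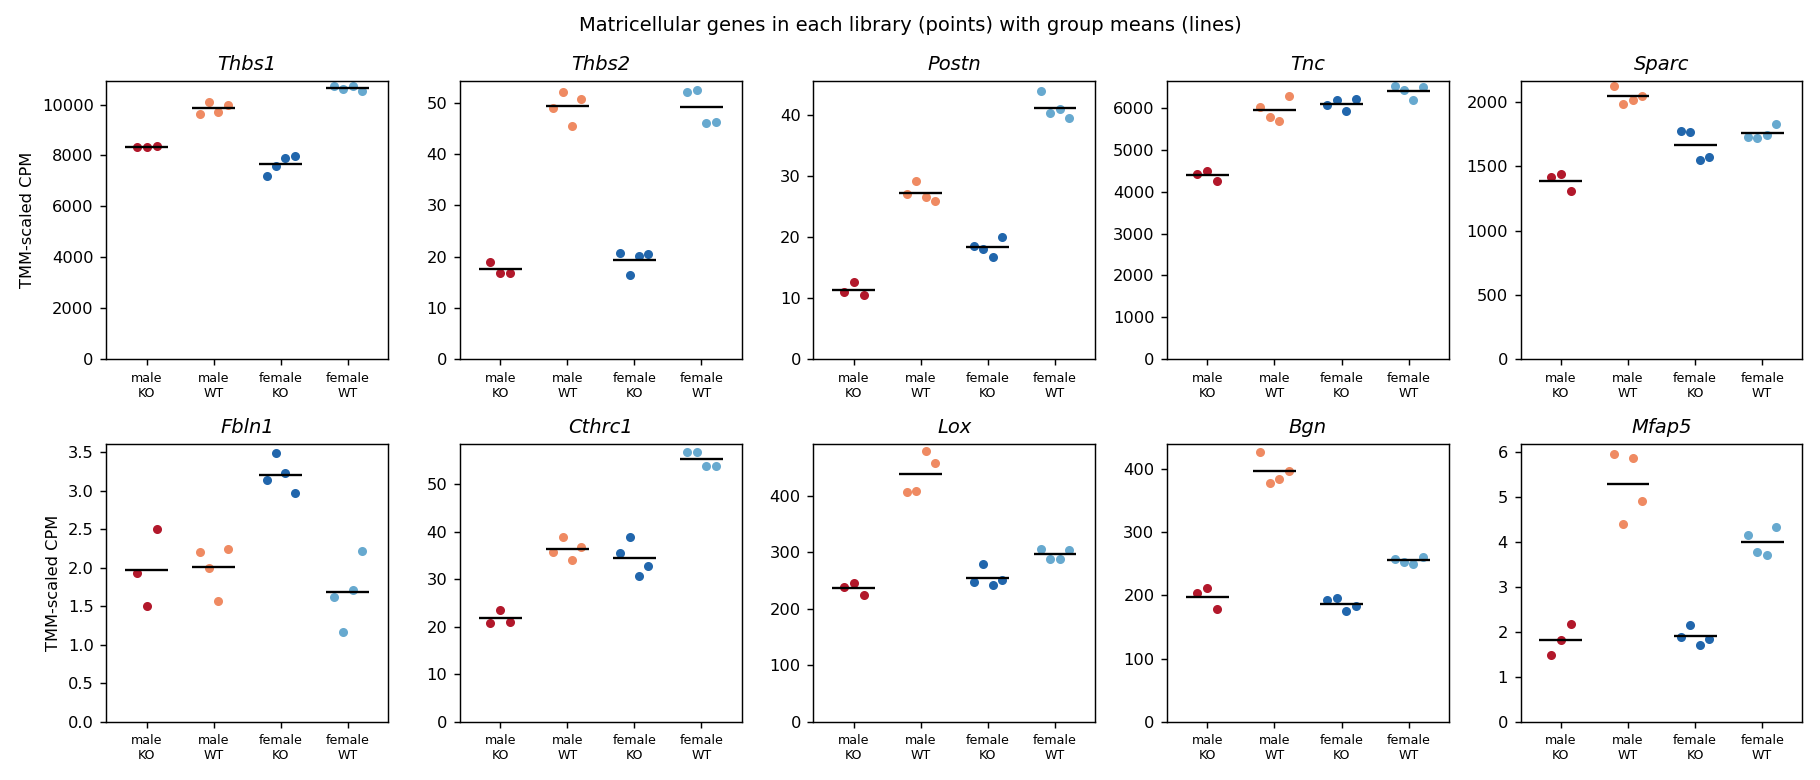
Level of each of the 10 genes in TMM-scaled CPM (vertical axes, each from 0) in male KO, male WT, female KO and female WT cells. Points are libraries and lines are group means. Thbs2 lies between 16.3 and 20.6 CPM in all KO libraries and between 45.5 and 52.5 CPM in all WT libraries, whereas Fbln1 is highest in female KO cells.

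The promoters of Thbs2, Postn and Fbln1 are printed because these genes stand for both directions. Thbs2 and Postn were lower in KO cells of both sexes, and Fbln1 was higher in female KO cells. Each is the 250 bases before a RefSeq transcript start on build GRCm38.p6, 5′ to 3′ on the gene's strand, with motif matches in capitals. The Thbs2 stretch lies at chr17:14694263-14694512 on the minus strand, the Postn stretch at chr3:54360857-54361106 on the plus strand and the Fbln1 stretch at chr15:85205699-85205948 on the plus strand.
Thbs2: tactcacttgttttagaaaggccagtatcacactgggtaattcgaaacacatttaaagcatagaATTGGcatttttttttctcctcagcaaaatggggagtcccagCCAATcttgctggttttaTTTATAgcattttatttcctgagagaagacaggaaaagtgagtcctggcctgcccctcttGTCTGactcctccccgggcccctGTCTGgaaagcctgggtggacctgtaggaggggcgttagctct
Postn: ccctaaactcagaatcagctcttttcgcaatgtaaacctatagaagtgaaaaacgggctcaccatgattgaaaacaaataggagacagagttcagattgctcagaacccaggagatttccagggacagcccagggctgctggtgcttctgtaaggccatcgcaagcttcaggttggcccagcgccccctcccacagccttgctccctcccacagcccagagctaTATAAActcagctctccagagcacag
Fbln1: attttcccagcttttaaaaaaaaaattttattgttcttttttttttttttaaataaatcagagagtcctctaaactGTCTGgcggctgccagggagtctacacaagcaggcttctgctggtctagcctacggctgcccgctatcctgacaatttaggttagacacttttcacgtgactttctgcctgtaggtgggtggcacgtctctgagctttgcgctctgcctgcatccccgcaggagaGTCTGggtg
The Thbs2 stretch holds a TATAAA match whose first base is 126 bases before the start, CCAAT matches at 186 and 144 bases and CAGAC matches, the SMAD box, at 66 and 43 bases. The Postn stretch holds TATAAA at 26 bases before the start. Another Postn promoter, not printed, holds no TATAAA and has CAGAC at 191 bases before its own start. The Fbln1 stretch holds CAGAC at 174 and 9 bases and no TATAAA or CCAAT. Another Fbln1 promoter, not printed, also holds GGGCGG at 11 bases before its own start. Motifs were searched on both strands of 9 RefSeq promoters, which belong to 6 of the genes (Thbs2, Tnc, Postn, Sparc, Fbln1 and Bgn). Promoters of the other genes of the group were not searched, so the counts of the 9 do not describe the whole group. TATAAA was in 4 of the 9, against 12.4% of 32851 promoters of the same length, and CAGAC was in 6 of the 9, against 42.2%. GGGCGG, the SP1 box, was in 4 of the 9, against 32.7%, and CCAAT in 1, against 33.8%. TGANTCA (AP-1) and GGAATG (TEAD) were in none of the 9, against 6.75% and 12.6% of all promoters. A match is a description of the letters and not a binding site, and several of the 9 promoters belong to the same gene. The Tnc stretches overlap and share their TATAAA and GGGCGG matches, and the Fbln1 stretches overlap and share their CAGAC matches. Each of these sites is thus counted more than once, and TATAAA lay in promoters of Thbs2, Postn and Tnc only.

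The comparison of KO with WT cells asks how loss of Diet1 bears on the RNA of cultured tubule cells. In male cells 9 of the 10 genes had every KO library below every WT library, and the exception was Fbln1. Of all genes tested, 13.7% were lower in male KO cells without overlap. In female cells 7 of the 10 were lower without overlap, against 16.7% of all genes tested, Fbln1 was higher without overlap, against 19.4%, and Sparc and Tnc overlapped. The same 7, Thbs1, Thbs2, Postn, Cthrc1, Mfap5, Bgn and Lox, were lower without overlap in both sexes, against 5.52% of all genes tested. The genes were chosen on these contrasts, so nothing is read from these shares. The median log2 fold change of the 10 genes was -0.81 in male and -0.46 in female cells, and that of all genes tested was 0.000207 and 0.000143. In a culture measured in bulk, fewer cells of a type and less RNA per cell cannot be told apart.

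Among the thrombospondins, Thbs1 (chr2:118111876-118127133, plus strand, GRCm38) was lower in KO cells by a modest ratio at a very high level. It had 8351, 8318 and 8362 CPM in male KO libraries, against 9633, 10116, 9699 and 9967 CPM in male WT libraries. It had 7186, 7602, 7884 and 7998 CPM in female KO libraries, against 10739, 10612, 10748 and 10544 CPM in female WT libraries. The groups did not overlap in either sex, and the female KO libraries were the lowest of all. The log2 fold change was -0.24 ± 0.027 (SE) in male and -0.48 ± 0.025 in female cells. Thbs1 overlaps a long noncoding RNA gene on the other strand, Gm29233, by 597 bases, and the strand setting of the counting is not given in the sources used here.

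Thbs2 (chr17:14665500-14694235, minus strand), a trimeric thrombospondin best known as an inhibitor of angiogenesis and a modulator of collagen fibrils, showed the same separation at a far lower level per kilobase. It had 19.0, 16.8 and 16.9 CPM in male KO libraries, against 49.0, 52.2, 45.5 and 50.7 CPM in male WT libraries. It had 20.6, 16.3, 20.2 and 20.5 CPM in female KO libraries, against 52.2, 52.5, 46.1 and 46.3 CPM in female WT libraries. The 7 KO libraries sat together, the 8 WT libraries sat together, and sex did not separate either set. The KO level was 2.80-fold lower in male cells (log2 fold change -1.49 ± 0.072) and 2.53-fold lower in female cells (-1.34 ± 0.065). The difference between these effects, female minus male, was 0.14 ± 0.099 on the log2 scale.

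Postn (chr3:54361109-54391037, plus strand) encodes periostin, a ligand of alpha V integrins that also binds collagen and tenascin C. It had 11.0, 12.6 and 10.5 CPM in male KO libraries, against 27.1, 29.2, 26.6 and 25.9 CPM in male WT libraries. It had 18.5, 18.0, 16.7 and 20.1 CPM in female KO libraries, against 43.9, 40.4, 41.1 and 39.5 CPM in female WT libraries. All 4 groups were separate, in the order female WT, male WT, female KO and male KO from high to low. Its log2 fold change was -1.26 ± 0.073 in male cells and -1.17 ± 0.059 in female cells, a difference of 0.09 ± 0.095.

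Tnc (chr4:63959785-64047015, minus strand), the tenascin of injury and development, differed between genotypes mainly in males. It had 4430, 4497 and 4262 CPM in male KO libraries, against 6016, 5782, 5702 and 6294 CPM in male WT libraries. It had 6073, 6190, 5928 and 6216 CPM in female KO libraries, against 6532, 6423, 6187 and 6508 CPM in female WT libraries. Female KO replicates 2 and 4 lay just above female WT replicate 3, and male KO was the lowest group by a clear margin. The log2 fold change was -0.44 ± 0.029 in male cells and -0.07 ± 0.027 in female cells, where it was -0.11 with scaling by library size alone. Tnc overlaps 67162 bases of a noncoding transcript on the other strand, 8030451A03Rik.

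Sparc (chr11:55394500-55423183, minus strand), a collagen-binding glycoprotein, followed a like pattern. It had 1416, 1445 and 1310 CPM in male KO libraries, against 2124, 1990, 2015 and 2052 CPM in male WT libraries. It had 1773, 1770, 1548 and 1573 CPM in female KO libraries, against 1733, 1724, 1748 and 1827 CPM in female WT libraries. Female KO replicates 1 and 2 fell within the WT range and replicates 3 and 4 below it. Its log2 fold change was -0.56 ± 0.049 in male cells and -0.08 ± 0.045 in female cells.

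Cthrc1, Lox and Bgn act on collagen. Cthrc1 (chr15:39076932-39087121, plus strand), a secreted protein with a short collagen-like repeat known for limiting collagen deposition, averaged 21.7 ± 1.52 CPM in male KO cells (SD, n = 3) and 36.3 ± 1.98 CPM in male WT cells (SD, n = 4). It averaged 34.4 ± 3.58 CPM in female KO cells and 55.3 ± 1.65 CPM in female WT cells (SD, n = 4 each). Libraries ran from 20.7 to 23.5 CPM in male KO and 34.1 to 38.8 in male WT, and from 30.6 to 38.8 in female KO and 53.8 to 56.7 in female WT. Female KO thus overlapped male WT while lying below female WT. Its log2 fold change was -0.74 ± 0.067 in male cells and -0.69 ± 0.055 in female cells.

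Lox (chr18:52516067-52529867, minus strand), the founding lysyl oxidase, averaged 236 ± 10.9 CPM in male KO cells (SD, n = 3) and 438 ± 36.6 CPM in male WT cells (SD, n = 4). It averaged 254 ± 17.1 CPM in female KO cells and 297 ± 9.72 CPM in female WT cells (SD, n = 4 each). The highest female KO library, at 280 CPM, came close to the lowest female WT library, at 288 CPM. Male WT stood apart from the other groups. The KO level was 1.86-fold lower in male cells (log2 fold change -0.89 ± 0.066) and 1.17-fold lower in female cells (-0.22 ± 0.060), a difference in effect of 0.67 ± 0.089. Lox overlaps an antisense gene, AC161119.1, by 1207 bases.

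Bgn (chrX:73483602-73495933, plus strand), a small leucine-rich proteoglycan that binds collagen and TGF beta, had 203, 211 and 178 CPM in male KO libraries, against 427, 379, 384 and 397 CPM in male WT libraries. It had 193, 196, 176 and 183 CPM in female KO libraries, against 257, 253, 250 and 261 CPM in female WT libraries. The KO groups of the sexes overlapped and the WT groups did not. The KO level was 2.01-fold lower in male cells (log2 fold change -1.01 ± 0.054) and 1.37-fold lower in female cells (-0.45 ± 0.050).

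Mfap5 and Fbln1 encode proteins of microfibrils and elastic fibres, and both were at low levels. Mfap5 (chr6:122505845-122529290, plus strand) averaged 1.83 ± 0.346 CPM in male KO cells (SD, n = 3) and 5.28 ± 0.757 CPM in male WT cells (SD, n = 4). It averaged 1.90 ± 0.183 CPM in female KO cells and 3.99 ± 0.295 CPM in female WT cells (SD, n = 4 each). The KO groups overlapped each other and neither overlapped its WT group. The log2 fold change was -1.55 ± 0.16 in male cells and -1.08 ± 0.15 in female cells.

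Fbln1 (chr15:85205949-85286535, plus strand) went against the other 9. It had 1.93, 1.51 and 2.50 CPM in male KO libraries, against 2.20, 1.999, 1.57 and 2.24 CPM in male WT libraries. It had 3.14, 3.50, 3.23 and 2.97 CPM in female KO libraries, against 1.62, 1.17, 1.71 and 2.22 CPM in female WT libraries. The male groups overlapped throughout, and all 4 female KO libraries were above every other library. The log2 fold change was -0.0065 ± 0.20 in male cells and 0.90 ± 0.18 in female cells.

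**Figure D2:**
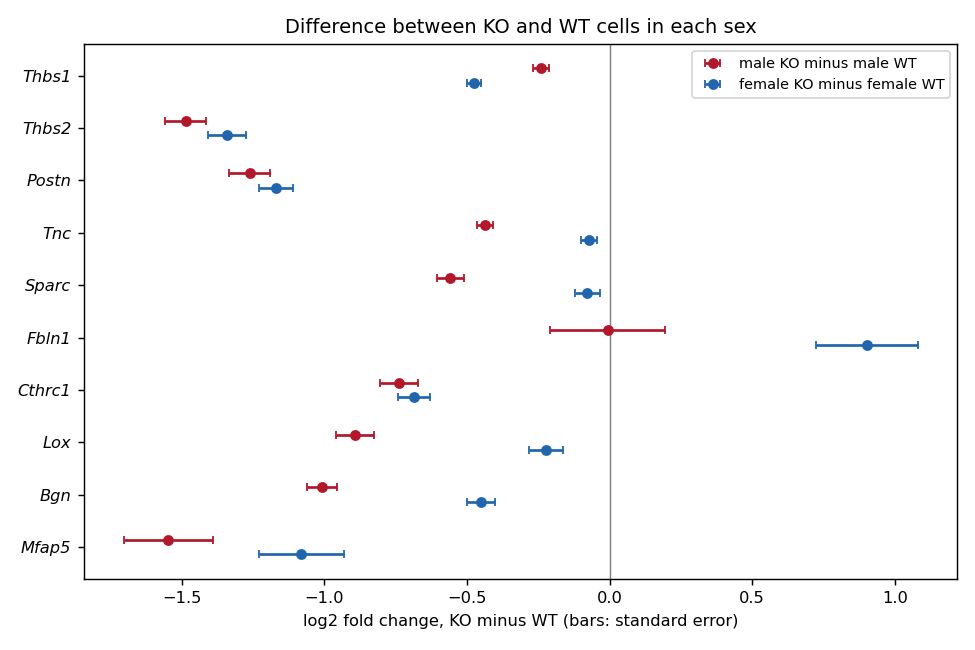
Log2 fold change of KO minus WT (horizontal axis) for the 10 genes (rows), in male and in female cells. Points are estimates of the edgeR fit over all genes and bars are standard errors. Thbs2, Postn and Cthrc1 have nearly the same value in both sexes, Sparc, Tnc, Bgn and Lox lie nearer to 0 in female cells, and Fbln1 is to the right of 0 at 0.90 in female cells.

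The 10 genes thus fell into sets by how the effects in the sexes compared, given as a description because both effects had a part in the choice of genes. The female effect minus the male effect was 0.14 ± 0.099 for Thbs2, 0.09 ± 0.095 for Postn and 0.05 ± 0.087 for Cthrc1 on the log2 scale (SE). It was 0.36 ± 0.039 for Tnc, 0.48 ± 0.066 for Sparc, 0.56 ± 0.073 for Bgn and 0.67 ± 0.089 for Lox, where the female effect was the smaller one. For Thbs1 it was -0.24 ± 0.037, the only negative value of the 10. It was 0.47 ± 0.23 for Mfap5 and 0.91 ± 0.27 for Fbln1, which have the widest errors.

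Female cells were compared with male cells on a contrast that had no part in the choice of the genes. Averaged over genotypes, Postn, Cthrc1 and Tnc were higher in female cells and Bgn and Lox were lower. These are 3 of the 10 higher, against 9.9% of all genes tested, and 2 lower, against 13%, with 22.9% in either direction. The log2 difference, female minus male, was 0.65 ± 0.047 for Postn (edgeR adjusted p = 7.47e-13), 0.64 ± 0.043 for Cthrc1 (edgeR adjusted p = 5.37e-13) and 0.29 ± 0.020 for Tnc (edgeR adjusted p = 2.08e-13). It was -0.36 ± 0.036 for Bgn (edgeR adjusted p = 1.05e-06) and -0.23 ± 0.044 for Lox (edgeR adjusted p = 0.00196). For Thbs1 (-0.0041 ± 0.018), Thbs2 (0.07 ± 0.050), Sparc (0.02 ± 0.033), Mfap5 (-0.19 ± 0.11) and Fbln1 (0.23 ± 0.14) the edgeR adjusted p lay between 0.239 and 0.910. With counts summed per pool, which leaves 4 pools and 1 residual degree of freedom, edgeR called 0 of the 10 and 7 genes of all. In that fit 2 of the 10 and 1072 genes of all had an unadjusted p under 0.05. They were Cthrc1, at 0.63 ± 0.053 (edgeR adjusted p = 0.0707), and Postn, at 0.64 ± 0.066 (edgeR adjusted p = 0.109).

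Within each genotype the sexes differed in other ways. In WT cells 4 of the 10 were higher in female cells, against 12.6% of all genes tested, and 4 lower, against 16%, with 28.6% in either direction. Postn (0.60 ± 0.055, edgeR adjusted p = 1.21e-10), Cthrc1 (0.61 ± 0.054, edgeR adjusted p = 1.53e-10), Thbs1 (0.11 ± 0.025, edgeR adjusted p = 6.02e-04) and Tnc (0.11 ± 0.027, edgeR adjusted p = 0.00201) were higher in female WT cells. Bgn (-0.64 ± 0.048, edgeR adjusted p = 1.99e-08), Lox (-0.56 ± 0.059, edgeR adjusted p = 6.69e-06), Mfap5 (-0.42 ± 0.12, edgeR adjusted p = 0.00819) and Sparc (-0.22 ± 0.045, edgeR adjusted p = 0.00152) were lower. Thbs2 gave -0.0013 ± 0.057 (edgeR adjusted p = 0.990) and Fbln1 -0.22 ± 0.19 (edgeR adjusted p = 0.413).

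In KO cells 5 of the 10 were higher in female cells, against 4.94% of all genes tested, and 1 lower, against 4.26%, with 9.2% in either direction. Postn (0.69 ± 0.077, edgeR adjusted p = 4.48e-08) and Cthrc1 (0.66 ± 0.068, edgeR adjusted p = 1.61e-08) were higher by about as much as in WT cells. Tnc (0.47 ± 0.029, edgeR adjusted p = 6.00e-14) and Sparc (0.26 ± 0.049, edgeR adjusted p = 0.00229) were higher in female KO cells, and Thbs1 was lower (-0.12 ± 0.027, edgeR adjusted p = 0.00203). Fbln1 was higher (0.69 ± 0.19, edgeR adjusted p = 0.0152), but not past the threshold without male KO replicate 1 (0.66, edgeR adjusted p = 0.0713), male KO replicate 2 (0.53, edgeR adjusted p = 0.137) or female KO replicate 2 (0.64, edgeR adjusted p = 0.0503). Bgn (-0.08 ± 0.054, edgeR adjusted p = 0.467), Lox (0.11 ± 0.066), Thbs2 (0.14 ± 0.081) and Mfap5 (0.05 ± 0.19) did not pass, although Bgn did without male KO replicate 3 (-0.15, edgeR adjusted p = 0.0375). Sparc was thus lower in female than in male WT cells and higher in female than in male KO cells. Averaged over genotypes it gave 0.02 ± 0.033 (edgeR adjusted p = 0.716). These contrasts within a genotype use the same libraries as the KO comparisons. For each gene, the within-KO value minus the within-WT value equals the female KO effect minus the male KO effect. Both effects had a part in the choice of genes. A sex difference that changes between genotypes, as for Sparc, is therefore a description, and its p-values give it no separate support.

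**Figure D3:**
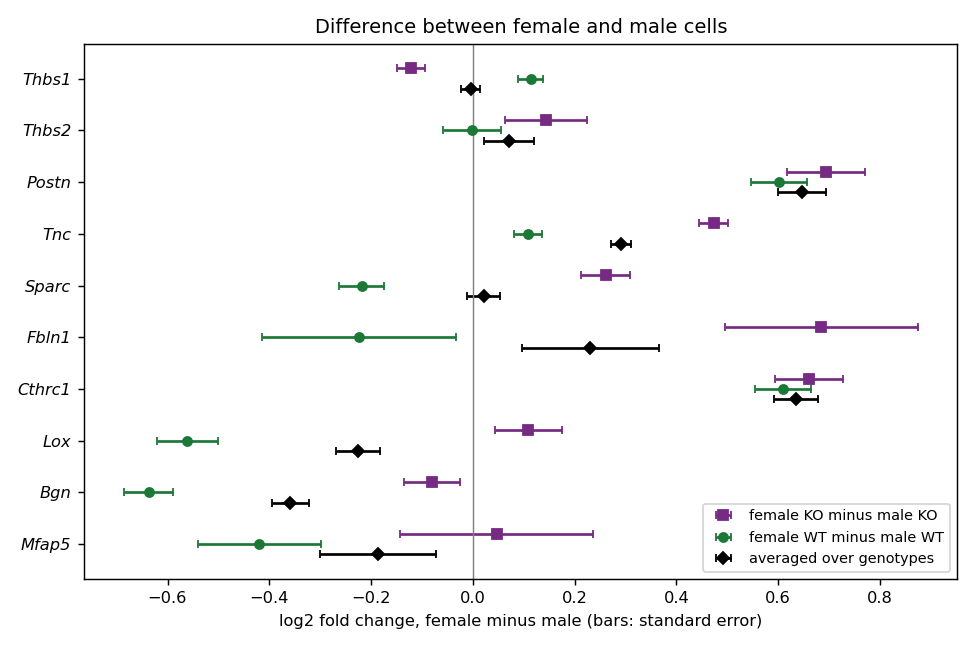
Log2 fold change of female minus male (horizontal axis) for the 10 genes (rows), within KO cells, within WT cells and averaged over genotypes. Points are estimates and bars are standard errors of the edgeR fit over all genes. Postn and Cthrc1 lie between 0.60 and 0.69 in all 3 comparisons, and Bgn and Lox lie at -0.64 and -0.56 within WT cells but near 0 within KO cells.

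The rest of the pathway was read from 14 lists of paralogs, partners, receptors and regulators, in all 121 symbols, of which 101 were tested. They were written with earlier results of these data known. In male cells 52 of the 101 fell and 9 rose, against 10.1% of all genes tested in each direction, and their median log2 fold change was -0.27. In female cells 29 fell, against 18.6% of all genes tested, and 21 rose, against 20.7%, and the median was -0.04. In either direction 20.2% of all genes tested passed in male and 39.3% in female cells. The genes that fell in both sexes numbered 19, and 7 rose in both. The share of all genes tested that passed in both sexes was not counted, so nothing is read from these counts. The KO effect itself differed between the sexes for 56 of the 101, against 15.6% of all genes tested (edgeR interaction, adjusted p below 0.05).

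Among close relatives, the thrombospondins Thbs3 and Comp and the periostin paralog Tgfbi did not pass the test in either sex, although Tgfbi rose in female cells without female WT replicate 2, female WT replicate 3 or female KO replicate 4, each left out in turn. The other tenascins had too few counts to be tested. Of 6 tested members of the SPARC family, Smoc2 rose in both sexes, to 8.96 ± 0.207 CPM in male KO cells, against 5.87 ± 0.243 in male WT cells, and to 15.3 ± 0.709 in female KO cells, against 10.2 ± 0.595 in female WT cells (log2 fold change 0.62 ± 0.091 and 0.59 ± 0.072, edgeR adjusted p = 3.30e-06 and 2.89e-08). Fstl1, a secreted follistatin-like glycoprotein, fell in both sexes (-0.52 ± 0.031 and -0.31 ± 0.029). Sparcl1 fell in male cells (-0.66 ± 0.19, edgeR adjusted p = 0.00898), but not without male WT replicate 3 (edgeR adjusted p = 0.0566) or male KO replicate 3 (edgeR adjusted p = 0.0512).

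In the CCN family, whose members are matricellular regulators of growth factor signals, 3 genes were tested. Ctgf rose in female KO cells to 3432 ± 177 CPM, against 2572 ± 98.6 CPM in female WT cells (0.42 ± 0.033, edgeR adjusted p = 4.95e-10), and gave -0.03 ± 0.036 in male cells (edgeR adjusted p = 0.579). Cyr61 rose in both sexes (0.13 ± 0.025 in male and 0.28 ± 0.024 in female cells) and Wisp1 fell in both by 0.29.

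Of 5 other fibulins tested, 3 fell in male cells and 4 in female cells, against 10.1% and 18.6% of all genes tested. None rose, whereas Fbln1 was higher in female KO cells. Efemp1, fibulin 3, fell in female cells (-0.65 ± 0.090, edgeR adjusted p = 6.47e-07) and gave -0.08 ± 0.091 in male cells. Hmcn1 fell in female cells (-0.66 ± 0.24, edgeR adjusted p = 0.0246), but not without female WT replicate 4 (edgeR adjusted p = 0.144), female KO replicate 1 or female KO replicate 3. Its male value was -0.60 ± 0.30 (edgeR adjusted p = 0.178). Of 11 microfibril and elastic fibre genes, 8 fell in male and 6 in female cells, against 10.1% and 18.6% of all genes tested. None was higher. Eln, elastin, fell in male KO cells to 8.87 ± 0.0709 CPM, against 18.2 ± 1.48 CPM in male WT cells (-1.04 ± 0.082, edgeR adjusted p = 8.30e-12), and gave -0.04 ± 0.075 in female cells. Mfap2, on 2 to 40 counts per library, fell in female cells (-0.99 ± 0.26, edgeR adjusted p = 0.00289). It gave -0.81 ± 0.38 in male cells (edgeR adjusted p = 0.135).

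Of the 4 other lysyl oxidases, 3 fell and 1 rose in male cells, against 10.1% of all genes tested each way. In female cells 3 rose, against 20.7%, and none fell, against 18.6%. The effect differed between the sexes for all 4, against 15.6% of all genes tested (edgeR interaction). Loxl2 fell in male cells (-0.54 ± 0.038, edgeR adjusted p = 7.86e-11) and rose in female cells (0.16 ± 0.035, edgeR adjusted p = 6.08e-04). Loxl3 likewise fell in male cells (-0.63 ± 0.077) and rose in female cells (0.23 ± 0.068). Loxl4 rose in both, by 0.15 ± 0.045 in male and 0.72 ± 0.045 in female cells. Lox itself was lower in KO cells of both sexes, as given above.

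Among 5 small leucine-rich proteoglycans tested beside Bgn, all at low levels, Ogn fell in female KO cells to 1.71 ± 0.442 CPM, against 3.90 ± 0.550 CPM in female WT cells (-1.19 ± 0.17, edgeR adjusted p = 7.61e-07). In male cells Ogn gave -0.75 ± 0.29 (edgeR adjusted p = 0.0647) and Aspn -0.66 ± 0.45 (edgeR adjusted p = 0.339). Aspn fell in female cells (-1.08 ± 0.44, edgeR adjusted p = 0.0472) on 3 to 14 counts per library, and missed the threshold without male KO replicate 2 or 3, female WT replicate 4 or female KO replicate 2, 3 or 4 (edgeR adjusted p up to 0.105). The call was also lost with no filter on low counts (edgeR adjusted p = 0.0703) and with DESeq2 (adjusted p = 0.0860). The 1 that fell in male cells was Podn, named after its values were seen (edgeR adjusted p = 0.0161), and none fell there without male WT replicate 1 or 2 or male KO replicate 2 or 3.

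Of 7 other matricellular and adhesive genes, 6 fell in male cells, against 10.1% of all genes tested. In female cells 4 fell, against 18.6%, and 1, Fn1, rose, against 20.7%. Srpx2 fell in both sexes (-0.998 ± 0.075 and -0.45 ± 0.070), and so did Srpx, at the limit of detection, with 1 to 30 counts per library. The male call for Srpx was lost without male KO replicate 1 (edgeR adjusted p = 0.0991) or replicate 2 (edgeR adjusted p = 0.0942). Fn1, fibronectin, fell in male cells (-0.29 ± 0.030). Its female value of 0.07 ± 0.028 (edgeR adjusted p = 0.0346) lost the call under 5 other settings, and without male KO replicate 1 or 2, female WT replicate 1, 2 or 3 or female KO replicate 2 or 4 (edgeR adjusted p up to 0.186).

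Of 9 fibrillar collagen genes, 6 fell and 1 rose in male cells, against 10.1% of all genes tested each way. In female cells 5 fell, against 18.6%, and 1 rose, against 20.7%. Col1a1 averaged 964 ± 60.3 CPM in male KO and 1771 ± 66.1 in male WT cells, and 1414 ± 61.4 in female KO and 1947 ± 85.2 in female WT cells (-0.88 ± 0.045 and -0.46 ± 0.041, edgeR adjusted p = 1.66e-10 and 6.76e-08). Col1a2 fell alike (-0.95 ± 0.033 and -0.47 ± 0.030). Col11a1 rose in male cells (0.33 ± 0.081) and fell in female cells (-0.16 ± 0.054, edgeR adjusted p = 0.0224), but not without female WT replicate 3 (edgeR adjusted p = 0.102) or replicate 4 (edgeR adjusted p = 0.0623). Col2a1, at 1.74 ± 0.313 CPM in female KO and 0.996 ± 0.183 CPM in female WT cells, rose in female cells. Its male value was 0.34 ± 0.21 (edgeR adjusted p = 0.291).

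Of 14 genes that process procollagen, 9 fell and 1 rose in male cells, against 10.1% of all genes tested each way. In female cells 1 fell, against 18.6%, and 2 rose, against 20.7%. Tll1, a tolloid-like protease that cleaves procollagen, rose in both, to 13.4 ± 0.615 CPM in male KO, against 9.94 ± 1.11 in male WT cells, and to 18.4 ± 1.71 in female KO, against 7.38 ± 0.974 in female WT cells (0.43 ± 0.096 and 1.31 ± 0.090, edgeR adjusted p = 0.00107 and 7.23e-14). Pcolce, the enhancer of that cleavage, rose in female cells (0.29 ± 0.059). Adamts2 (-0.81 ± 0.20) and P4ha3 (-0.68 ± 0.17) fell in male cells.

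Of 23 receptors for matricellular proteins and collagen, 9 fell and 3 rose in male cells, against 10.1% of all genes tested each way. In female cells 3 fell, against 18.6%, and 9 rose, against 20.7%. The collagen receptor Ddr2 fell in male KO cells to 7.80 ± 1.32 CPM, against 15.4 ± 1.14 CPM in male WT cells (-0.99 ± 0.096, edgeR adjusted p = 9.62e-10), and gave -0.00063 ± 0.10 in female cells. Itga9, an integrin subunit that binds tenascin C, fell in male cells (-1.03 ± 0.094). Itga4 fell in male cells (-0.90 ± 0.17) and rose in female cells (0.71 ± 0.19), and the SPARC scavenger receptor Stab1 rose in female cells (0.92 ± 0.15).

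Of 11 TGF beta ligands, receptors and SMADs, 4 fell and 1 rose in male cells, against 10.1% of all genes tested in each direction. In female cells 2 fell and 2 rose, near the 18.6% and 20.7% of all genes tested. Tgfb3 fell in male cells (-0.43 ± 0.046) and rose in female cells (0.22 ± 0.042), and Tgfb1 fell in male cells (-0.40 ± 0.060) with 0.13 ± 0.056 in female cells (edgeR adjusted p = 0.0780). Smad3 rose in both (0.10 ± 0.027 and 0.08 ± 0.025), the female call being lost with scaling by library size alone (edgeR adjusted p = 0.152). The female count that fell was 1 without female WT replicate 1, 2 or 3 or female KO replicate 1 or 4, and the male count that rose was 2 without male WT replicate 4 or female KO replicate 1.

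**Figure D4:**
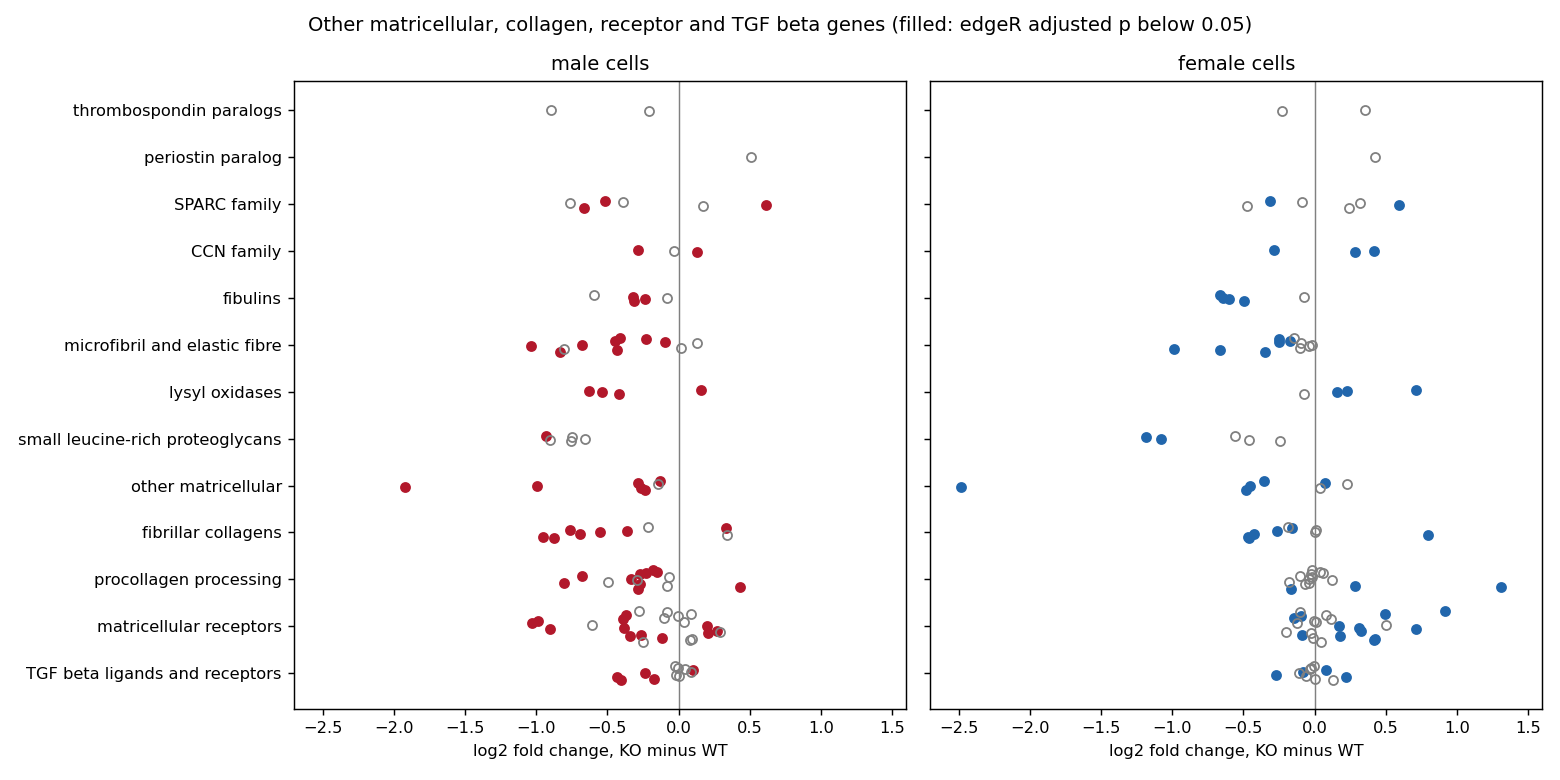
Log2 fold change of KO minus WT (horizontal axes) in male and female cells for each tested gene of the lists (points, 1 list per row). Filled points passed an edgeR adjusted p of 0.05. Most filled points lie left of 0 in male cells, 52 against 9, and on both sides in female cells, 29 against 21.

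Some genes that mark other cell types also differed between KO and WT cells. Of 12 fibroblast markers, 9 were tested, of which 8 fell in male KO cells, against 10.1% of all genes tested. In female KO cells 6 fell, against 18.6%, and 1 rose, against 20.7%. Col1a1, Col1a2, Col3a1 and Fbn1 fell in both sexes and were already counted in the collagen and microfibril lists. The 1 that rose in female cells was Pdgfra (edgeR adjusted p = 0.0161), and the count was 0 without female WT replicate 3 and 2 without replicate 4. The summed level of the 12 markers was 2034 to 2237 CPM in male KO and 3867 to 4097 CPM in male WT libraries, and 2844 to 3105 CPM in female KO and 3902 to 4220 CPM in female WT libraries. Most of that sum is collagen. Without the collagens and Fbn1, a subset chosen after the values were seen, the 8 remaining markers summed to 71.8 to 75.4 CPM in male KO and 114 to 117 CPM in male WT libraries, and to 72.2 to 79.2 CPM in female KO and 71.1 to 80.9 CPM in female WT libraries. Lum and Pi16 had at most 2 counts in any library. Pdgfrb alone made up most of that smaller sum, at 63.0 CPM in male KO and 99.3 CPM in male WT cells, and 66.0 CPM in female KO and 62.6 CPM in female WT cells on average. Of the same 8, Thy1 (-0.56 ± 0.13, edgeR adjusted p = 9.27e-04) and Meg3 (-0.59 ± 0.22, edgeR adjusted p = 0.0353) fell in female KO cells.

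Endothelial markers also moved in males. Of 10, 9 fell in male KO cells, against 10.1% of all genes tested. In female KO cells none fell and 2 rose, against 18.6% and 20.7%. The sum was 41.2 to 46.0 CPM in male KO and 84.3 to 91.6 CPM in male WT libraries, and 43.3 to 54.8 CPM in female KO and 37.9 to 44.9 CPM in female WT libraries. Of 9 pericyte and smooth muscle markers, 8 fell in male KO cells, against 10.1% of all genes tested. In female KO cells 4 fell, against 18.6%, and 2 rose, against 20.7%. The sums over that list were 2968 to 3041 CPM in male KO and 3497 to 3868 CPM in male WT libraries. In female cells they were 3789 to 4374 CPM in KO and 3856 to 3900 CPM in WT libraries. Of 8 leukocyte markers tested, 3 rose in male and 4 in female KO cells, against 10.1% and 20.7% of all genes tested. The sums over the whole list were 33.4 to 34.8 CPM in male KO and 22.2 to 27.4 CPM in male WT libraries. In female cells they were 46.2 to 58.9 CPM in KO and 35.4 to 42.8 CPM in WT libraries. The part of these cell types in the results was not tested.

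Podocyte markers summed to 429 to 467 CPM in male KO and 502 to 532 CPM in male WT libraries, and to 337 to 379 CPM in female KO and 331 to 351 CPM in female WT libraries. Of the 8, 3 fell in male cells (1 without male WT replicate 3 or male KO replicate 2 or 3), and 2 fell and 3 rose in female cells (5 without female WT replicate 3 or female KO replicate 4). Of all genes tested, 10.1% fell in male cells, and 18.6% fell and 20.7% rose in female cells. Markers of the distal nephron and collecting duct were at 6.71 to 8.51 CPM in male KO and 10.5 to 12.9 CPM in male WT libraries, and at 4.09 to 7.53 CPM in female KO and 18.6 to 20.5 CPM in female WT libraries, with Slc4a1 at 0 in every library. Of 6 tested, 1 fell in male and 4 in female cells, against 10.1% and 18.6% of all genes tested.

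**Figure D5:**
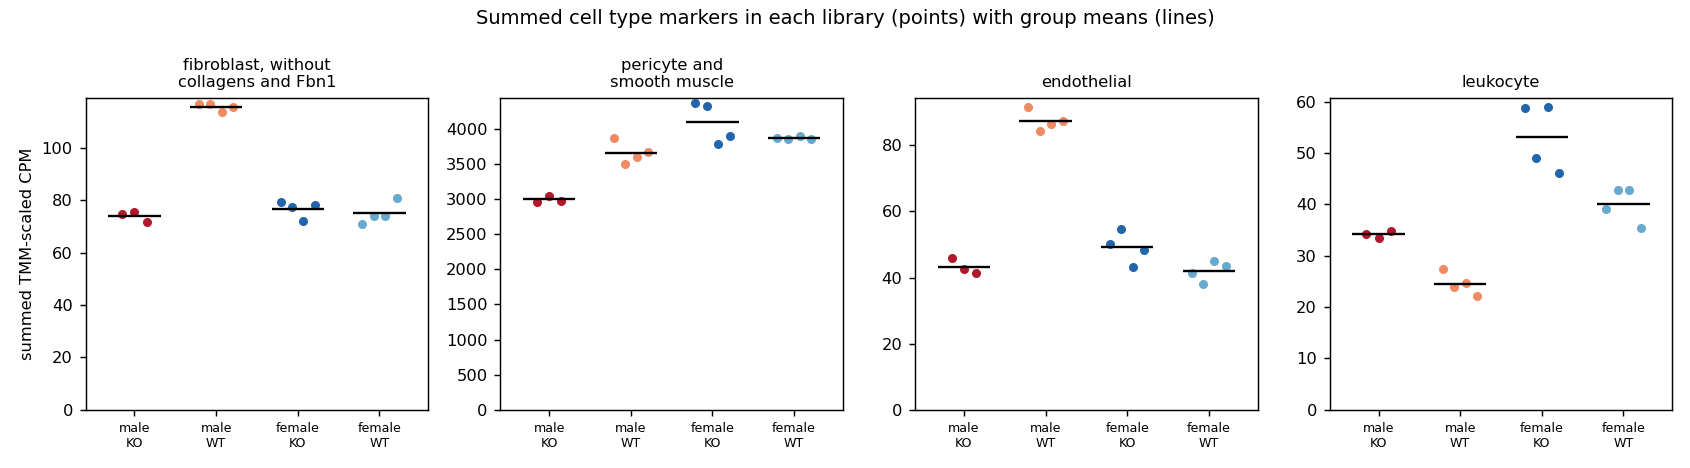
Summed TMM-scaled CPM (vertical axes, each from 0) of fibroblast markers without collagens and Fbn1, pericyte and smooth muscle, endothelial and leukocyte markers in male KO, male WT, female KO and female WT cells. Points are libraries and lines are group means. The fibroblast and endothelial sums are highest in male WT libraries, at 114 to 117 CPM and 84.3 to 91.6 CPM.

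Among 10368 other tested genes that averaged 5 CPM or more, those whose log2 levels followed Thbs2 most closely were Slco5a1, Col8a1, Parm1, Cxxc5 and Col5a2, with Pearson's r between 0.962 and 0.989 over 15 libraries. For Postn they were Mylk, Wls, Wisp1, Calcoco1 and Tmem59, with r between 0.970 and 0.984. The libraries of a group share a pool, so these values describe the order of 4 group levels more than 15 separate ones. Slco5a1, a gene of the organic anion transporter family, averaged 2.12 ± 0.229 CPM in male KO cells (SD, n = 3) and 12.04 ± 1.69 CPM in male WT cells (SD, n = 4), and 2.45 ± 0.515 CPM in female KO cells and 10.2 ± 1.08 CPM in female WT cells (SD, n = 4 each). Col8a1, a chain of a network-forming collagen, averaged 34.5 ± 0.867 CPM in male KO and 88.2 ± 2.32 CPM in male WT cells, and 43.2 ± 0.914 CPM in female KO and 77.8 ± 3.55 CPM in female WT cells. Mylk, the smooth muscle myosin light chain kinase, averaged 32.6 ± 0.376 CPM in male KO and 58.3 ± 1.91 CPM in male WT cells, and 48.6 ± 1.76 CPM in female KO and 75.1 ± 2.17 CPM in female WT cells.

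Within the KO groups the median variation of the 10 genes was above that of all tested genes, and within the WT groups below it. The comparison was not matched for level. Their median coefficient of variation was 6.95% in male KO and 5.49% in male WT libraries, and 7.08% in female KO and 3.13% in female WT libraries, and over all tested genes it was 4.69% in male KO and 5.89% in male WT, and 5.82% in female KO and 4.91% in female WT libraries.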

How the data were processed

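RNA-seq counts per gene symbol were measured in 15 libraries of primary proximal tubule cells. Per the submitters' processing notes, the deposited whole-number counts were made on mm10 with STAR 2.6.1 and featureCounts, and edgeR 3.26.8 and limma 3.40.6 were also used. The kit marks strand per the labels' protocols, and the annotation and strand setting of the counting are not given in the sources used here. CPM values were deposited too, and equal the counts per library total to within 5.1e-11 and served only for that check. The members and the gene lists were chosen with earlier results of these data known.

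The analysis used edgeR 4.0.16 and limma 3.58.1 in R 4.3.3. Genes passing filterByExpr (minimum count 10, minimum total 15), 13912 of 24421, were scaled by TMM and fitted with 1 robust quasi-likelihood model over the 4 groups. Adjusted p-values are Benjamini-Hochberg over all genes tested in a contrast, with a threshold of 0.05. The contrast of the female KO effect with the male KO effect was added to the planned ones after the data had been seen. Standard errors are the estimate over the square root of F. The coefficient of variation between libraries beyond counting error (root of the common dispersion) was 3.59%. Libraries of a group correlated at 0.994 or more and differed beyond sampling noise (chi-square per degree of freedom 1.53 to 7.76), and those of different groups at 0.993 or less. At these depths 3 counts are 0.0971 to 0.170 CPM. Lengths and positions are from GENCODE M21 (GRCm38), which matched 96.2% of the genes tested, and promoters are from RefSeq (GRCm38.p6). The procedure was tested on simulated data.

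Replicate numbers were not used as pairs in the main fit, and whether they pair the libraries was not settled. Same-numbered libraries of different groups deviated together with a correlation of -0.0285 to 0.165, above 0.1 in 1 of 21 pairs. The median was 0.0301, against -0.00553 for libraries of different number, and 8 of 15 libraries matched best with their own number. Named list genes are up to 2 called in each direction per list with the largest fold in either sex. Podn, Tgfbi, Thbs3 and Comp stand outside that rule, and were named after their values were seen. Alternatives were DESeq2 size factors, upper quartile and library size scaling, no filter and a filter of 5 CPM in 3 libraries, DESeq2 1.42.0, a replicate block, counts summed per pool and leaving out each library. Malrd1 was not analysed here, and 1 gene of the lists is not reported.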

Additional observations from a re-analysis of the deposited data

Results flagged for a closer look

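Of 30 sets of 4 libraries examined, 10 genes in 3 groups each, 1 held a library far from the others. Thbs2 was at 16.3 CPM in female KO replicate 2 and at 20.2 to 20.6 CPM in the other 3 female KO libraries, a gap of 0.901 of the range. Chance gives about 1 such set in 20.

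The KO effect differed between the sexes (edgeR interaction over all genes tested) for 22 of the 33 list genes named above, against 56 of all 101 tested list genes and 15.6% of all genes tested. The 33 were named for the largest fold in either sex, a choice that favours such a difference. Values are the log2 female effect minus the male effect. Among elastic fibre and cross-linking genes it was 1.001 for Eln, 0.86 for Loxl3, 0.70 for Loxl2, 0.56 for Loxl4 and -0.56 for Efemp1. Among collagens and their processing genes it was 0.88 for Tll1, 0.48 for Col1a2, 0.42 for Col1a1, 0.37 for Pcolce and -0.49 for Col11a1. Among receptors it was 1.62 for Itga4, 1.20 for Stab1, 0.99 for Ddr2 and 0.91 for Itga9. Among matricellular and adhesive genes it was 0.90 for Sparcl1, 0.54 for Srpx2, 0.45 for Ctgf, 0.36 for Fn1, 0.21 for Fstl1 and 0.15 for Cyr61, and among TGF beta ligands 0.65 for Tgfb3 and 0.53 for Tgfb1. The edgeR adjusted p was highest for Sparcl1, at 0.0226, and lowest for Loxl2, at 4.61e-10. These values were positive for 20 of the 22 genes, Efemp1 and Col11a1 being the exceptions. The share of positive values among all genes tested was not counted. The lists were written with earlier results known and fell mostly in male cells, which favours positive values, so nothing is read from their sign. The difference rests on 1 pool of cells per group.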

How the results depend on the processing

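Leaving out 1 library at a time, 9 of the 10 genes were lower without overlap in male cells and 7 to 8 in female cells. The number that differed by sex was 5 averaged over genotypes, 8 within WT and 5 to 7 within KO. Summing counts per pool brought the averaged number to 0, with 4 pools and 1 residual degree of freedom.

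Values near 0 that did not pass the test changed sign. For Thbs2 within WT, female minus male was 0.00129 with DESeq2 size factors, 0.0225 by library size, 0.00253 with no filter, 0.00156 with the 5 CPM filter, 0.000892 with DESeq2 and 2.63e-05 with the replicate block, and -0.0393 to 0.0309 without single libraries. For Thbs1 averaged over genotypes it was 0.000179 by library size and -0.0122 to 0.0127 without single libraries. For Mfap5 within KO it was -0.0856 to 0.200 without single libraries.

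The share of female calls that were higher was 52.7%, and 39.9% by library size alone, which moved the median of all genes to -0.038. Calls numbered 2051 to 3052 in male and 4900 to 5766 in female cells without single libraries. With the replicate block they were 3092 and 5909, and 8 of 15 libraries matched best with their own number, a hint from the data and not the design. Fold changes of Mfap5, Fbln1 and other genes of few counts are limited by depth, and the 5 CPM filter removed both. The causes were not tested.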
